A study of Mus musculus with 2 samples.

Results

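The genes described here encode the subunits of the proteasome, its activators, its inhibitor and its assembly chaperones. They were taken by symbol, as the protein-coding autosomal genes of GENCODE M1 whose symbol is Psma, Psmb, Psmc, Psmd, Psme, Psmf or Psmg followed by a number. This gave 47 of the 22367 protein-coding genes, or 47 of the 21418 on autosomes. Psmd10, on the X chromosome, was left out by that rule, as were Psmc3ip and Psme2b-ps, whose symbols go on after the number. Rfx6 binding was mapped by chromatin immunoprecipitation and sequencing (ChIP-seq) with an anti-HA antibody in Min6B1, an insulin-secreting β cell line of the mouse. In the 3HA-Rfx6 group, the cells were transfected with 24 µg of the plasmid pCMV-Tag2A-3HA-Rfx6 and harvested 2 days later. The control library came from Min6B1 cells taken through the same ChIP-seq. Its cell type label names no transfection, although the growth text of the labels is the same for both samples. Both used the antibody 12CA5. The antibody recognises the HA tag, so the peaks are those of the transfected protein and not of the endogenous one.

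The proteasome is the barrel-shaped protease that degrades proteins marked with ubiquitin. Its core is built of stacked α and β rings, with the proteolytic sites on β subunits. It is opened by a regulatory particle, whose base holds a ring of ATPases that unfold the substrate and whose lid removes ubiquitin. In immune cells, and after interferon, a set of alternative catalytic β subunits gives the immunoproteasome. β cells make large amounts of proinsulin, and misfolded proinsulin is exported from the endoplasmic reticulum and degraded by the proteasome.

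There was 1 library of each condition, so no value below has a replicate error. The 3HA-Rfx6 library kept 33949757 reads after duplicates were removed and the control 3567375, so the fold enrichments rest on a background from the shallower library. The list holds 23308 peaks with 24 reads or more. A peak was placed by its summit, and its reads are called tags, as in the list. Fold enrichment compares a peak with the background that the peak caller expected there. Intervals given for tags are exact 95% Poisson intervals and cover counting error only.

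A 3HA-Rfx6 summit lay within 1 kb of the start of 10 of the 47 genes, or 21.3%. Among all protein-coding genes the share was 20.1%, and among those on autosomes it was 20.8%, so the proteasome genes were close to the background. Within 10 kb, 13 of the 47 had a summit (27.7%), against 35.7% of all protein-coding genes and 37.0% of the autosomal ones. The 10 genes with a summit within 1 kb were Psma2, Psma5 and Psma7 of the α ring, Psmb8, Psmb9 and Psmb11 of the β rings, Psmc2 of the ATPase ring, and Psmd3, Psmd6 and Psmd7 of the lid. Psmb5, Psmd12 and Psme2 had their nearest summit between 1 and 10 kb. In the remaining 34 genes, the nearest summit was 11.3 to 356 kb from the start, with a median of 33.0 kb. Counts over genes of 1 library are a description, since genes are not replicates.

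The sequences at the summits of the 5 genes with the most tags within 1 kb are given first. They were taken by tags, and by fold enrichment or score Psma5, Psmb8 and Psmd3 stand above Psmd6. Each is 200 bases long, on the strand of the proteasome gene, 5′ to 3′, from the NCBIM37 (mm9) genome. Capitals mark matches to the motifs searched here, which were the X-box in a strict and a relaxed form, GTTGCC (1 arm of the X-box), TGACNNNGC (core of the antioxidant response element), CCAAT (bound by NF-Y), CCGGAAG (bound by ETS factors), GCATGCGC (nuclear respiratory factor) and TGACGTCA (cAMP response element), on both strands. The X-box is the inverted repeat that Rfx proteins recognise, and matches of GTTGCC can lie inside it. The sequences lie at chr5:21290608-21290807 (Psmc2), chr2:179776839-179777038 (Psma7), chr17:34325162-34325361 (Psmb9), chr8:110112019-110112218 (Psmd7) and chr14:14953124-14953323 (Psmd6).
Psmc2: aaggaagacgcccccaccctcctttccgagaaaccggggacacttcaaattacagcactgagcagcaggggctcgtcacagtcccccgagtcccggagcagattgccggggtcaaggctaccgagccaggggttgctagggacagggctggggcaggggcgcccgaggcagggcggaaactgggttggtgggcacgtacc
Psma7: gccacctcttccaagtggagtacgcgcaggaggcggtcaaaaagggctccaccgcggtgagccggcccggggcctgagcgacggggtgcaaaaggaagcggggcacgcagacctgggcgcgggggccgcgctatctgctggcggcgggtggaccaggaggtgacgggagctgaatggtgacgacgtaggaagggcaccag
Psmb9: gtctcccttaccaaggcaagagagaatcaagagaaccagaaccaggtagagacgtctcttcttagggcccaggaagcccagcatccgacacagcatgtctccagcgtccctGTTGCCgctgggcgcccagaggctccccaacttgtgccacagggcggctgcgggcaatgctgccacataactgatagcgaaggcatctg
Psmd7: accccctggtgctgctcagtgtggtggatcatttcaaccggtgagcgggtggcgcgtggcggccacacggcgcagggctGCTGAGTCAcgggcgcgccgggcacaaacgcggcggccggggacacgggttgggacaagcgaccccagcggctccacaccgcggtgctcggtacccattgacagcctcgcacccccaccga
Psmd6: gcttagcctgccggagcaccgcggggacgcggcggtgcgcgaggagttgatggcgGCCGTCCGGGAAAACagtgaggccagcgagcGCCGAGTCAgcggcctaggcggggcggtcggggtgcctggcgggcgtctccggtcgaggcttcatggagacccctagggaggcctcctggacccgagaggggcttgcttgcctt

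No motif of the list was matched at the summits near Psmc2 and Psma7. The capitals in the sequence near Psmb9 are a GTTGCC, 12 bp from the summit. In the sequence of Psmd7 they are a TGACNNNGC match, read on the other strand, 12 bp from the summit. The sequence of Psmd6 holds a relaxed X-box 30 bp from the summit and a TGACNNNGC match 5 bp from it. Over the 10 summits, 0 had a strict X-box in the 200 bp around them and 2 had a relaxed one. Among the 4051 peaks that are nearest to an autosomal start and within 1 kb of it, 5.85% had a strict X-box and 39.1% a relaxed one, and the relaxed form was also present in 23.4% of windows placed 1 kb to the right of the same summits. The other relaxed X-box was at Psma5, at chr3:108059860-108059872 and 36 bp from the summit. It is shown here on the plus strand, in capitals, because it lies in an untranslated part of an exon and close to the summit. The stretch shown is chr3:108059851-108059880.
Psma5: ggcgtgctcACTCCTCGACGACgaggttca

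In 800 bp around the summits, a relaxed X-box was found at 7 of the 10 and a strict one at 0, against 73.3% and 6.81% of the 4051 peaks at starts. Psmc2, Psma7 and Psmb11 had neither form there. TGACNNNGC was matched at 4 of the 10 summits (Psma2, Psmb11, Psmd6 and Psmd7), against 9.28% of the 4051 peaks at starts, and GTTGCC at 2 (Psma5 and Psmb9), against 22.9%. A match to such short letters is a description and not a binding site.

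**Figure D1:**
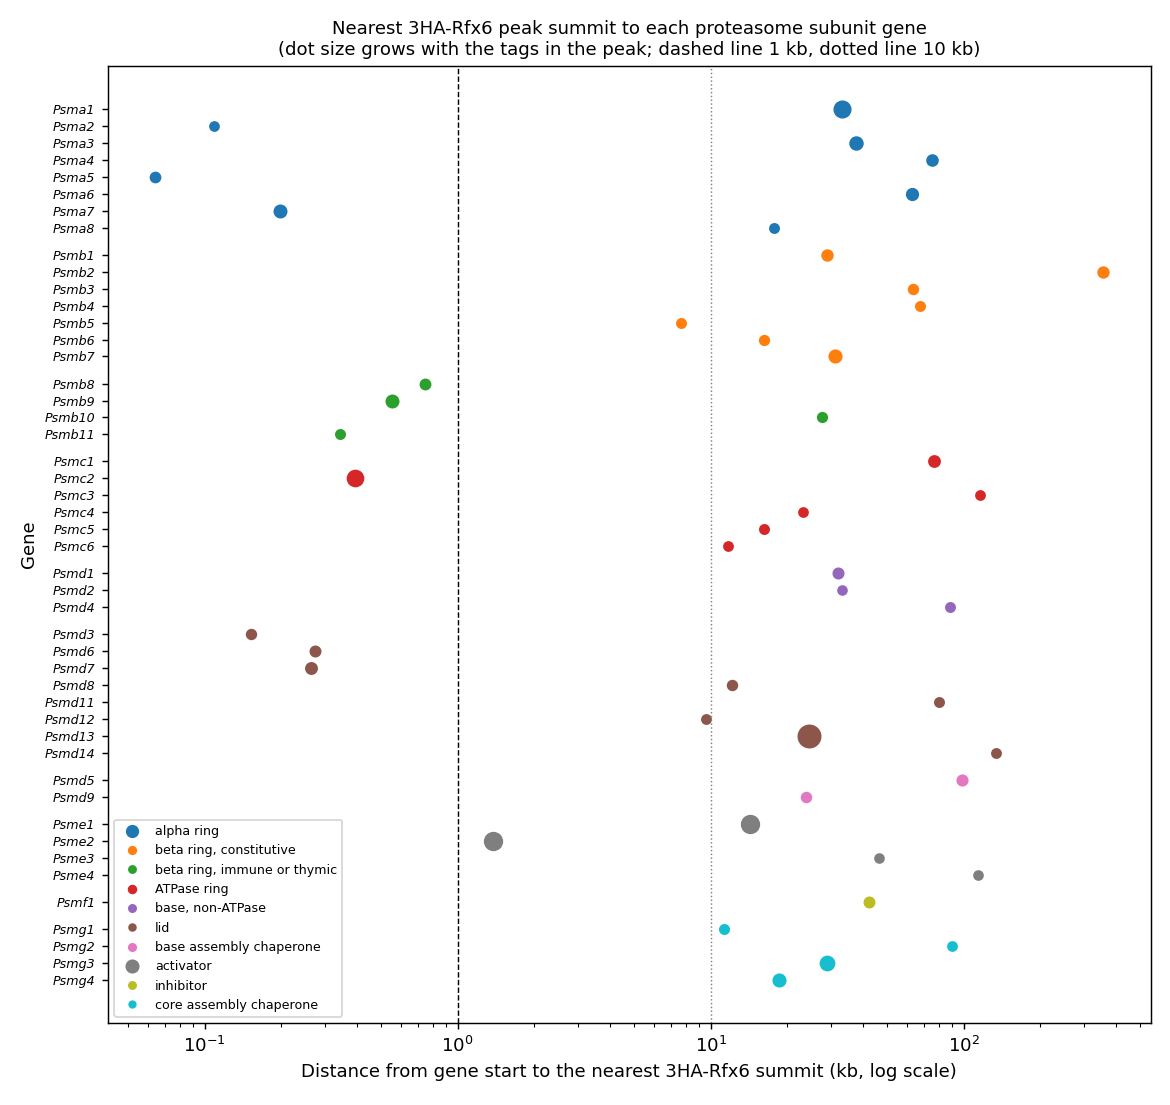
Distance in kb (log axis) from the start of each of the 47 genes to the nearest 3HA-Rfx6 summit, by role, with larger dots for peaks with more tags. The 10 genes left of the dashed line (1 kb) are in the α ring, the immune or thymic β subunits, the ATPase ring and the lid, and 34 genes lie right of the dotted line (10 kb).

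Of the α ring genes, which form the gated outer rings of the core, 3 of 8 had a summit within 1 kb, against 20.8% of autosomal genes. Psma7 (minus strand, chromosome 2, 179771078 to 179777138) had a peak from 179776017 to 179777635 with 110 tags (90.4 to 133), a fold enrichment of 9.43 and its summit in an intron, 199 bp after the start. Of all peaks, 27.3% held at least as many tags. Ss18l1, which encodes a chromatin-associated neuronal protein, starts on the other strand 76 bp from Psma7, and the same summit was 275 bp from its start. Psma5 had a peak of 60 tags (45.8 to 77.2) and a fold enrichment of 10.12, 64 bp after the start, the nearest summit of all 47 genes. Psma2 had the fewest tags of the 10, 38 (26.9 to 52.2), with a fold enrichment of 4.72, in an intron 109 bp after the start. It lies head to head with Mrpl32, a mitochondrial ribosomal protein gene, whose start was 326 bp from the summit. The intervals of Psma7 and Psma5 do not overlap, so the difference in tags is larger than counting error. The peak of Psma7 was also the longer (1619 against 1186 bp), and its fold enrichment was the lower (9.43 against 10.12). For the other genes of the ring, Psma1, Psma3, Psma4, Psma6 and the testis-specific Psma8, the nearest summit was 17.8 to 75.1 kb away.

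Of the 7 constitutive β subunits Psmb1 to Psmb7, 0 had a summit within 1 kb. These include Psmb5, Psmb6 and Psmb7, which carry the catalytic sites of the standard proteasome. Of the 4 immune or thymic subunits, 3 had such a summit. Over autosomal protein-coding genes the share was 20.8%. The 3 include Psmb8 and Psmb11, whose fold enrichments were below 10, and Psmb9, whose summit lay in Tap1. The comparison involves few genes and was not tested. Psmb9 and Psmb8, which replace Psmb6 and Psmb5 in the immunoproteasome, lie in the major histocompatibility complex on chromosome 17. The Psmb9 peak, from 34324336 to 34325575, held 110 tags (90.4 to 133) with a fold enrichment of 11.3. Its summit was 553 bp upstream of Psmb9 and inside a coding exon of Tap1, 764 bp after the start of that gene, which encodes a subunit of the peptide transporter for antigen presentation and starts 211 bp inside Psmb9 on the other strand. The annotation has 2 models of Psmb9 whose starts differ by 12 bp, and the longer was used. The Psmb8 peak, from 34334790 to 34335993, held 63 tags (48.4 to 80.6) with a fold enrichment of 9.89, in a coding exon 745 bp after the start. A further peak of 57 tags with a fold enrichment of 11.06 lay between genes, 8.03 kb from the start of Psmb9. Psmb10, which replaces Psmb7, had its nearest summit 27.6 kb away, at the start of Slc12a4.

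Psmb11, the subunit of the proteasome of thymic cortical epithelium, had a peak of 43 tags (31.1 to 57.9) in its coding exon, 343 bp after the start, with a fold enrichment of 4.24. This fold enrichment was reached by 98.3% of all peaks. The neighbouring Psmb5 starts 7.64 kb from this same summit, so its place among the 13 genes with a summit within 10 kb rests on the peak of Psmb11. For Psmb1, Psmb2, Psmb3, Psmb4, Psmb6 and Psmb7, the nearest summit was 16.3 to 356 kb away. The nearest to Psmb4, at 67.2 kb, was in an untranslated exon of Rfx5, a gene for another Rfx factor, and 62 bp from its start. The same peak of 43 tags was also the nearest to Psmd4, at 88.5 kb.

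Psmc2, an ATPase of the base, had the most tags of the 10 genes. The gene spans 21291101 to 21309605 of chromosome 5, on the plus strand, and its peak extended from 21290051 to 21291299. The peak held 191 tags (165 to 220), with a fold enrichment of 30.31, a score of 1026.1 (10 times the negative log10 of its p-value) and a false discovery rate of 4.61%. Of the 10 genes, the false discovery rate was highest at Psmc2 and lowest, 1.79%, at Psma2, which had the fewest tags. As many tags as at Psmc2 were reached by 9.04% of all peaks, and that fold enrichment by 3.17%. The tags were above those of Psma7 and Psmb9, with intervals that do not overlap. The summit was 393 bp upstream of Psmc2 and 361 bp inside Dnajc2, in an intron. Dnajc2, which encodes a ribosome-associated chaperone, starts 32 bp from Psmc2 on the other strand, so the peak cannot be assigned to either gene by position. The other 5 ATPase genes, Psmc1, Psmc3, Psmc4, Psmc5 and Psmc6, had their nearest summit 11.7 to 117 kb away.

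Of the 8 lid genes, 3 had a summit within 1 kb, against 20.8% of autosomal genes. None of these 3 has a start on the other strand within 1 kb. Psmd7 is a partner of the deubiquitinating subunit Psmd14. Its peak, from 110111516 to 110112708 on chromosome 8, held 86 tags (68.8 to 106) with a fold enrichment of 11.06, in an intron 263 bp after the start. Psmd6 had a peak on chromosome 14 from 14952354 to 14953667, with 65 tags (50.2 to 82.8) and a fold enrichment of 4.72, in an intron 274 bp after the start. Psmd3 had a peak of 52 tags (38.8 to 68.2) with a fold enrichment of 5.88, in an untranslated part of an exon 152 bp after the start. The tags of Psmd7, Psmd6 and Psmd3 have overlapping intervals, except that those of Psmd7 and Psmd3 only just separate (68.8 against 68.2). Psmd12 had a peak of 40 tags with a fold enrichment of 3.84, 9.55 kb upstream and in a coding exon of Pitpnc1, 791 bp after the start of that gene. Psmd14, the deubiquitinase itself, had its nearest summit 135 kb away. Psmd8, Psmd11 and Psmd13 had theirs 12.2 to 79.8 kb away, and that of Psmd13 had the most tags of any nearest peak of the 47 genes, 331, and lay 510 bp from the start of Ric8.

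The other parts of the complex had 0 of 14 genes with a summit within 1 kb, against 20.8% of autosomal genes. In the base, Psmd1 and Psmd2 had their nearest summit 32.0 and 32.9 kb away, and Psmd4, a ubiquitin receptor, is given above. These distances are from the start, and 2 summits lay inside Psmd1, farther from its start than 32.0 kb. The base chaperones Psmd5 and Psmd9 had theirs 98.6 and 23.9 kb away, the first at the start of Hspa5, which encodes the chaperone BiP. The core chaperones Psmg1, Psmg2, Psmg3 and Psmg4 had theirs 11.3 to 89.7 kb away. The summit nearest to Psmg3, 28.9 kb off in an exon of Mafk, had 149 tags and a strict X-box. Strict X-boxes were also present at the summits nearest to Psmd8, Psmb3 and Psmc1, which were 12.2, 63.4 and 76.4 kb away. The share over all peaks is not given here, so these distant matches are not set against a background. The inhibitor gene Psmf1 had its nearest 42.4 kb away.

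Among the activator genes, Psme2 had the nearest peak with the most tags among the 13 genes with a summit within 10 kb, although that of Psmc2 had the higher fold enrichment and score. Its peak, from 56209909 to 56212084 on chromosome 14, held 228 tags (199 to 260) with a fold enrichment of 12.42, and 5.72% of all peaks held at least as many. The interval overlaps that of Psmc2. The summit was 1.38 kb upstream of Psme2, in a coding exon of Rnf31, which encodes a ubiquitin ligase subunit, and 789 bp after the start of that gene. A further peak in a coding exon of Rnf31 lay 5.06 kb upstream, with 62 tags and a fold enrichment of 9.18. The same 228-tag peak was the nearest to Psme1, the partner of Psme2 in the interferon-induced activator, at 14.4 kb. Psme3 and Psme4 had theirs 46.4 and 114 kb away.

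**Figure D2:**
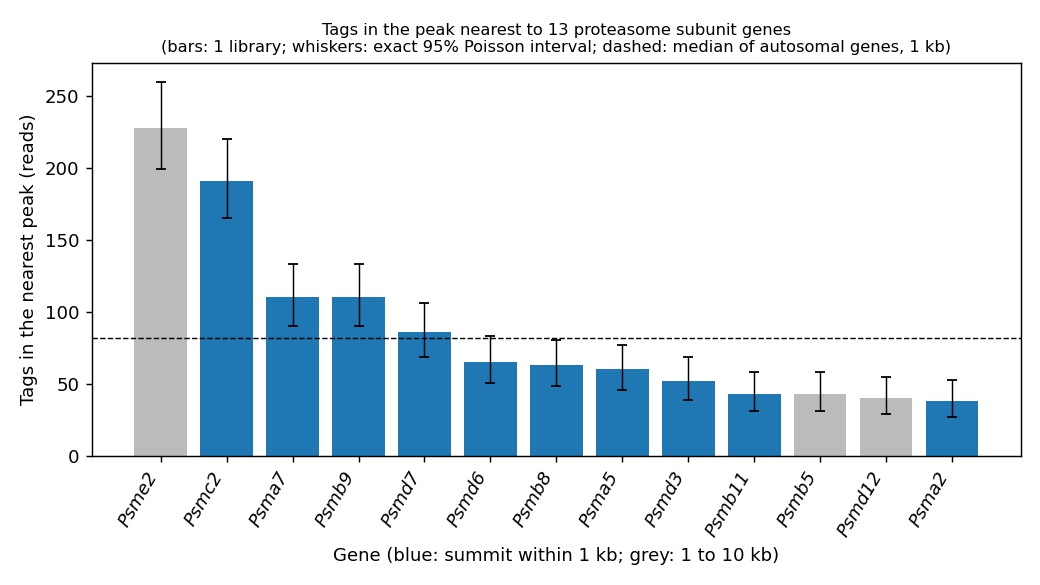
Tags (reads) in the nearest peak of the 13 genes with a summit within 10 kb, with exact 95% Poisson intervals, in blue for summits within 1 kb and in grey for 1 to 10 kb, and a dashed line at the median of autosomal genes with a summit within 1 kb (82 tags). The peaks near Psme2 (228 tags) and Psmc2 (191 tags) stand above the others in tags, and Psmb11 and Psmb5 are given the same peak of 43 tags.

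Over the 10 genes with a summit within 1 kb, the median was 64 tags (38 to 191), and the median fold enrichment was 9.66 (4.24 to 30.3). For the 4465 autosomal genes with such a summit, the medians were 82 tags and a fold enrichment of 8.94. The tags of the proteasome genes were thus lower in the median and the fold enrichments slightly higher, and neither difference was tested. A peak of at least 100 tags lay within 1 kb of 3 of the 47 genes (6.38%), as it did for 8.22% of autosomal genes. The nearest summit was downstream of the start in 8 of the 10 and upstream at Psmb9 and Psmc2, whose summits lie inside the gene on the other strand. Among autosomal genes with a summit within 1 kb, it was downstream in 67.1%. Of the 10 summits, 4 were also within 1 kb of the start of another protein-coding gene, against 18.1% over the 4465 autosomal genes.

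The starts of the proteasome genes are mostly of the CpG-rich kind, here meaning a ratio of observed to expected CpG of at least 0.6 and a GC content of at least 50% in the 500 bp on each side. This held for 36 of the 47 (76.6%), against 45.1% of autosomal genes. CpG-rich starts had summits more often in general, with 34.4% of them within 1 kb and 50.0% within 10 kb of a summit. Of the 36 proteasome genes with such a start, 8 had a summit within 1 kb (22.2%) and 10 within 10 kb (27.8%). Against genes with the same kind of start, the shares were therefore lower at both distances, and this difference was not tested. The median distance to the nearest summit was 24.5 kb for the proteasome genes, 23.5 kb for autosomal genes and 10.0 kb for those with a CpG-rich start. At 100 kb, 43 of the 47 had a summit (91.5%), against 76.2% of autosomal genes and 89.1% of those with a CpG-rich start.

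**Figure D3:**
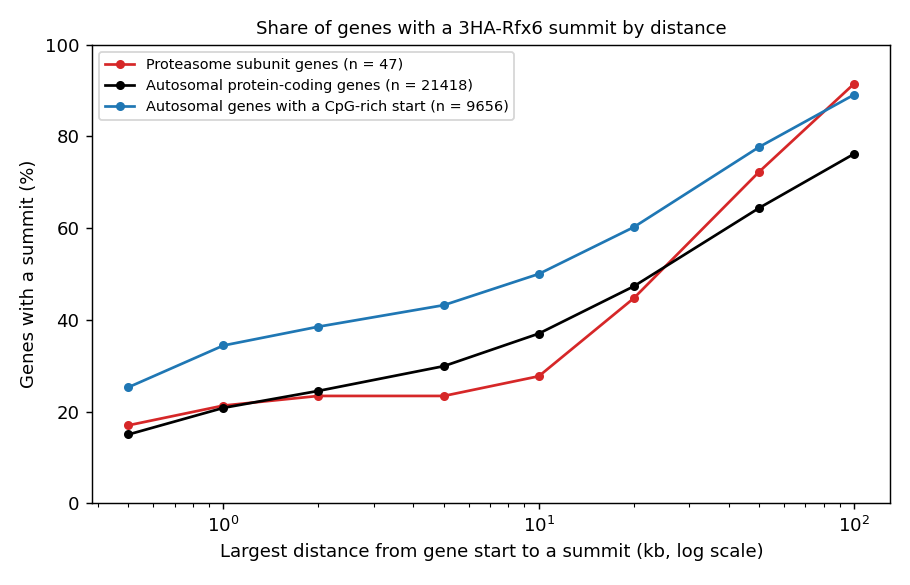
Share of genes (%) with a 3HA-Rfx6 summit within a given distance of the start (kb, log axis), for the 47 proteasome genes, all autosomal protein-coding genes and those with a CpG-rich start. The proteasome genes follow all autosomal genes up to 2 kb (23.4 against 24.5%), lie below both backgrounds at 5 and 10 kb, and lie between them at 50 kb.

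A start on the other strand within 1 kb was present at 9 of the 47 genes. Of these, 4 had a summit within 1 kb, namely Psma2, Psma7, Psmb9 and Psmc2, against 33.4% of autosomal genes with such a neighbour. Of the 38 without one, 6 had a summit (15.8%), against 19.3% of autosomal genes of that kind. The 3 genes with the most tags within 1 kb (Psmc2, Psma7 and Psmb9) all belong to the first kind.

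Housekeeping complexes of similar kind gave comparable values within 1 kb. Of 72 cytosolic ribosomal protein genes, 23.6% had a summit within 1 kb, with a median of 71 tags, and of 78 respiratory chain genes, 26.9% had one, with a median of 90 tags. Within 10 kb the shares were 48.6% and 47.4%, against the 27.7% of the proteasome genes. These values stand side by side and were not tested.

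The start regions, from 250 bp before to 50 bp after the start, were searched for the same motifs, whether or not a peak was there. A strict X-box was found in 0 of the 47, and in 1.32% of autosomal genes. The relaxed form was found in 20 (42.6%, against 34.5%), CCAAT in 18 (38.3%, against 37.6%) and TGACNNNGC in 7 (14.9%, against 12.6%). TGACNNNGC was present at Psmb2, Psmb5, Psmb6, Psmc6, Psmd7, Psmd9 and Psmd12, and of these Psmd7 had a summit within 1 kb. CCGGAAG was found in 15 (31.9%), against 10.9% of autosomal genes and 18.9% of those with a CpG-rich start. Of the 10 genes with a summit within 1 kb, 3 had CCGGAAG (Psmc2, Psmd6 and Psmd7), as did 12 of the 37 without one. GTTGCC was found in 4 (8.51%, against 11.9%), GCATGCGC in 4 (8.51%, against 3.35%) and TGACGTCA in Psmb2 and Psmb8 (4.26%, against 2.31%). In autosomal genes with a CpG-rich start, the shares were 14.9% for TGACNNNGC, 6.04% for GCATGCGC and 3.81% for TGACGTCA. They were 32.4% there for the relaxed X-box, 37.3% for CCAAT and 11.9% for GTTGCC.

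**Figure D4:**
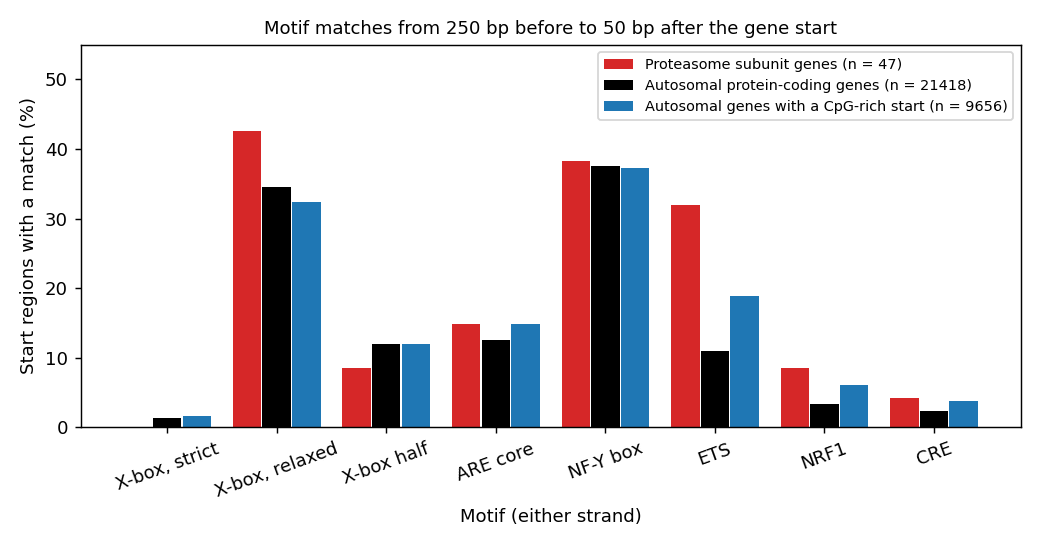
Share of start regions (%) with a match to each motif, for the 47 proteasome genes (red), autosomal protein-coding genes (black) and those with a CpG-rich start (blue), where ARE is the antioxidant response element, NRF1 nuclear respiratory factor and CRE the cAMP response element. The ETS motif was present in 31.9, 10.9 and 18.9% and the strict X-box in 0, 1.32 and 1.62%, and no error is drawn because these are counts over fixed sequences.

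Genes that act with the proteasome were read from a list of 27 further genes, of which 26 matched a gene of the annotation (Paaf1 did not). A summit lay within 1 kb of the start of 6 (23.1%) and within 10 kb of 12 (46.2%), against 20.1 and 35.7% of all protein-coding genes. Both transcription factors of the list, each known to raise the expression of proteasome genes, were among the 6. Nfe2l1, which drives the recovery of proteasome genes when the protease is inhibited, had 3 summits within 10 kb. The nearest, 587 bp upstream of the start, held 111 tags with a fold enrichment of 18.13. The others were 5.68 and 8.42 kb downstream, with 59 and 121 tags. Nfe2l2, the factor of the oxidative stress response, had a peak of 61 tags with a fold enrichment of 4.94 in an intron 424 bp after the start. Ddi2, the protease that activates the product of Nfe2l1, had a summit 11.8 kb upstream with 111 tags. A strict X-box lay in the 200 bp around it, again with no background share for such distant summits. A further gene listed with these, for transcription factors and their processing, had its nearest summit 96.6 kb away.

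The summit upstream of Nfe2l1 was the only one of the 16 within 1 kb of the proteasome genes or of this list with a strict X-box. Of the 4051 peaks at autosomal starts, 5.85% had one. Its sequence, chr11:96691769-96691968 on the strand of the gene, is given because of that X-box, the 14 capitals near its middle, 7 bp from the summit. They include a GTTGCC. The other capitals are a relaxed X-box near the 5′ end and a further GTTGCC near the 3′ end.
Nfe2l1: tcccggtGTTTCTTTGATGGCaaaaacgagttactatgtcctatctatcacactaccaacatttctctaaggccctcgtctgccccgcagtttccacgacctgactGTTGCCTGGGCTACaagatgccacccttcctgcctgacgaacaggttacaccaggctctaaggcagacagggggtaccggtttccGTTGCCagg

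The other genes of the list with a summit within 1 kb were Shfm1, a small lid subunit, with 105 tags and a fold enrichment of 8.83, Uchl5, a deubiquitinase of the base, with 93 tags and 6.83, Zfand2a, a stress-induced regulator, with 60 tags and 7.53, and the shuttle factor Ubqln4, with 48 tags and 3.9. The summits near Uchl5 and Ubqln4 lie in Trove2 and Lamtor2, which start on the other strand. Adrm1, Nploc4, Ubqln1 and Usp14 had their nearest summit between 4.04 and 8.73 kb. Among the remaining 14, which include the core chaperone Pomp (12.2 kb), the unfoldase Vcp (25.3 kb) and the ubiquitin genes Ubb (12.7 kb) and Rps27a (60.4 kb), the distance was 11.1 to 332 kb. The shares of this list stand close to those of all protein-coding genes at 1 kb and above them at 10 kb. However, 23 of the 26 have a CpG-rich start, and against autosomal genes with such a start (34.4 and 50.0%) the shares are lower at both distances, and none of this was tested. Expression was not measured in this experiment, so none of these peaks is tied here to a level of RNA.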

How the data were processed

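The peak list of 3HA-Rfx6 was analysed, and the control entered through the peak calling. Per the labels, reads of 50 bases were made with CASAVA 1.8.2, mapped with Bowtie (version not given in the sources used here) to mm9, and peaks were called with MACS 1.4.2. Per the file headers, the p-value cutoff was 1e-05 and 1 read was kept per position, so 68.7% of 49443917 reads remained, and 21.1% of the 16911298 control reads. The tags the authors deposited are counts of reads in a peak, without normalization. The deposited fold enrichment is a ratio to the expected background, the deposited score holds 10 times the negative log10 of a p-value, and the deposited FDR is in percent. A low control depth could change the fold enrichments, and this was not tested.

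Here, each summit (start + summit - 1) was set against the 5′ end of each gene in GENCODE M1 (NCBIM37, mm9), with 1 model per symbol for the 47 genes, the longest, and all 23308 peaks ended inside the chromosomes of that build. Exons are those of protein-coding transcripts. X-box patterns followed an earlier analysis of these data. Motifs were searched in 200 bp around summits and in start regions. Values were given for every proteasome gene with a summit within 10 kb, for listed pathway genes with a summit within 1 kb, and mostly by range otherwise. Some genes of the pathway list are counted but not reported here by name. Sequences were shown for the 5 genes with the most tags, and Psma5 and Nfe2l1 were added after their values were seen. No test was run, because there was 1 library per condition. The genes and lists were chosen with earlier results of these data known. Alternatives were other starts, windows, peak sets and gene sets. The search and the assignment were tested on simulated data, where 100% of 400 planted strict X-boxes and of 3000 starts were recovered. The planted X-boxes were built from the pattern searched for, so this checks the code only, and the other motifs were not planted. Scripts ran under Python 3.11.15, with scipy 1.17.1 for intervals, pandas 2.3.3 and numpy 2.4.6 for tables, and matplotlib 3.10.9 for plots.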

Additional observations from a re-analysis of the deposited data

How the results depend on the processing

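No paired analysis was possible because each condition had a single library and no test was run, and no library could be left out in turn. The stricter peak sets lowered both the counts for proteasome genes and the shares for the background. With the peaks of highest score the proteasome genes fell further. Their share within 1 kb then lay below the background in place of close to it, but it rests on 4 genes and was not tested. With the peaks of higher fold enrichment, the share within 1 kb stayed close to the background. With the 11654 peaks of highest score, 4 of 47 proteasome genes had a summit within 1 kb and 6 within 10 kb, against 11.7 and 21.6% of all protein-coding genes, the median was 110 tags over the 4, 0 of them had a relaxed X-box, and 3 of the 26 pathway genes had a summit within 1 kb. With a fold enrichment of at least 10 (9223 peaks), the counts were again 4 and 6, against 8.65 and 17.2%, the median was 98 tags, 1 of the 4 had a relaxed X-box, and 1 pathway gene remained. An FDR of at most 1% left 10 peaks and 0 genes of either list, against 0.00447 and 0.0179% of all genes, so no median could be given. Among the 10 genes with a summit within 1 kb in the full list, the FDR was highest at Psmc2 (4.61%), which had the most tags. It was lowest at Psma2 (1.79%), which had the fewest, so a cut on the FDR takes out Psmc2 before Psma2. In place of 10 kb, windows of 20 and 50 kb gave 21 and 34 of 47 genes, against 45.7 and 62.4% of all genes. The strict X-box in place of the relaxed one was present at 0 of the 10 summits. With genes that have a CpG-rich start as background, the share within 1 kb was 34.4% in place of 20.1%. In place of 1 kb, windows of 0.5, 2 and 5 kb gave 8, 11 and 11 genes, against 14.5, 23.6 and 28.8% of all genes, so that at 5 kb the proteasome genes (23.4%) fell below the background. Within 1 kb, starts of any protein-coding transcript gave 10 genes, against 22.6%, peak overlap gave 11, against 22.9%, and the added genes gave 10 of 48 and 11 of 49. With the starts of any protein-coding transcript, 8 of the 26 pathway genes had a summit within 1 kb, in place of 6. The comparison of members with the background at stricter peak sets, other windows and other starts was chosen after seeing the data. Binding that gave fewer than 24 reads, the fewest in a listed peak, was not detectable at this depth.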
